A study of Mus musculus with 6 samples.

Results

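Sgk1 and 8 genes of aldosterone-regulated sodium absorption were examined in the colon of mice with dextran sodium sulfate (DSS) colitis. The genes were Sgk1, Scnn1a, Scnn1b, Scnn1g, Nr3c2, Hsd11b2, Slc9a3, Nedd4l and Tsc22d3, 9 of the 18194 genes that the platform annotation names by probe sets of 1 gene only. Sgk1 was selected on its difference between genotypes in an earlier look at these data, so its values are given as a description with no test. The others were picked by function, with those earlier results known. Each gene is led by its brightest probe set, by mean level over the 6 arrays. A probe set is a group of short probes for 1 transcript, and its level is a log2 summary, so a difference of 1 is a doubling.

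The deficient group was 3 C57BL/6 mice with Pparg flanked by loxP sites (PPAR g fl/fl) and Lysozyme M cre+, which deletes the gene in myeloid cells, mainly macrophages and neutrophils. The control group was 3 littermates with the same floxed gene and Lysozyme M cre-. All 6 animals, from a colony of 6- to 8-week-old mice, drank 2.5% DSS and were killed on day 7, so no array shows tissue without DSS. The design asks what loss of the receptor in myeloid cells does to the inflamed bowel. RNA came from whole colonic tissue, 1 mouse per array. Epithelial cells, the main site of the sodium transport genes, are not the cells that this promoter is used to target, and Cre itself was present in the deficient mice only.

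Aldosterone raises sodium uptake across the surface cells of the distal colon. It binds the mineralocorticoid receptor, encoded by Nr3c2, which switches on Sgk1, a kinase that inactivates the ubiquitin ligase Nedd4l and so keeps the epithelial sodium channel ENaC at the cell surface. Glucocorticoids act on Sgk1 as well, through their own receptor, while Hsd11b2 inactivates corticosterone in aldosterone target cells. PPAR gamma agonists are known to cause sodium retention through the kidney.

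RefSeq promoter windows (GRCm38.p6, 250 bases before to 50 after a transcript start) were found for 6 of the 9 genes, 13 windows in all, 6 of them for Sgk1 and 3 for Tsc22d3. They were searched for the corticosteroid receptor motif, AGAACA and TGTTCT separated by any 3 bases, which reads the same on both strands. It occurred in 3 of 32851 windows of this length (0.00913%), and 1 of these belonged to Sgk1. The Sgk1 window is shown because it holds this complete motif, in capitals, and the Tsc22d3 window because it holds 1 of its 2 arms, also in capitals.
Sgk1, chr10:21993640-21993939, plus strand: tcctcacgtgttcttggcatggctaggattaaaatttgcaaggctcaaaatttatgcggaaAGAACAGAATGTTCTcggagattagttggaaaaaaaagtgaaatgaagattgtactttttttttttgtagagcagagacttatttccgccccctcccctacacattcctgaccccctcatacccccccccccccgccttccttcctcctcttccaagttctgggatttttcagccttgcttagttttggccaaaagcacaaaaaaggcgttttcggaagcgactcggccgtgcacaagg
Tsc22d3, chrX:140600473-140600772, minus strand: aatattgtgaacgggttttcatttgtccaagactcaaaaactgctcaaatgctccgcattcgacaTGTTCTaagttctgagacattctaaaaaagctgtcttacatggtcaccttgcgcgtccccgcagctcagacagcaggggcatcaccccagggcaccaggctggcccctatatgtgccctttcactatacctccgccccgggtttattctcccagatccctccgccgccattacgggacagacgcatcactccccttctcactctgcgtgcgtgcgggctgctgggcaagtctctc
The motif in Sgk1 began at position -189 from the start of that window's transcript and at -965 from the most downstream of the 6 Sgk1 starts. A single arm, AGAACA on either strand, occurred in 19% of all windows, in 3 of the 6 Sgk1 windows and in 1 of the 3 Tsc22d3 windows. The core motif of PPAR gamma and related receptors, AGGTCA on either strand, was in 2 of the 6 Sgk1 windows and in 16.3% of all windows. The repeat of AGGTCA with 1 base between, the form that PPAR gamma binds with its partner RXR, was in 13 of all windows (0.0396%). None of these belonged to the 6 genes with a window, and the rest of the 9 could not be searched. At that share, finding none in so few windows is the usual outcome. A match describes the sequence only and does not show that a factor binds there.

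The arrays differed in tissue profile as well as genotype. Deficient replicate 3 and control replicate 1 carried genes of the small intestine and are called the 2 enterocyte-profile arrays, the other 4 the colon-profile arrays. Mean levels over 9 enterocyte markers were 11.33 and 12.50 on the 2, against 5.51 to 7.47 on the 4. Their colonocyte and colon identity markers averaged 5.66 and 4.73, against 7.93 to 8.71. Aldosterone-dependent sodium uptake belongs to the distal colon, so differences are also given for each kind of array. The 4 colon-profile arrays were not alike in colon identity genes. There Hoxa10 read 8.92 and 8.88 in deficient and 7.23 and 7.07 in control colon. Hoxd10 read 3.91 and 2.29 against 6.59 and 6.51, and Hoxb13 3.76 and 7.30 against 2.26 and 2.25, though neither passed the filter on dim probe sets. Whether these arrays match in colon segment was not tested. Pparg had 8.77, 8.23 and 4.15 in deficient colon and 5.28, 9.91 and 9.54 in control colon, which does not check a deletion limited to myeloid cells. Lyz2, where Cre is inserted, had 6.80, 6.24 and 10.39 in deficient and 12.32, 11.79 and 12.19 in control colon.

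Sgk1 was lower in deficient colon than in control colon on every array. Its single probe set (1416041_at) read 11.38, 10.63 and 10.67 in deficient colon and 13.23, 12.43 and 12.72 in control colon. The groups did not overlap, and the nearest arrays, deficient replicate 1 and control replicate 2, lay more than 1 log2 unit apart. The means were 10.89 ± 0.42 in deficient and 12.79 ± 0.40 in control samples (SD, n = 3 each), a log2 difference of -1.90, or 0.268 of the control level on a linear scale. Within the deficient group, replicates 2 and 3 were almost equal although they came from arrays of opposite tissue profile. Among the 4 colon-profile arrays Sgk1 differed by -1.57, and between the 2 enterocyte-profile arrays by -2.56. The single highest level was that of control replicate 1, an enterocyte-profile array. With 1 array left out at a time the difference ran from -2.15 to -1.68. In whole tissue, fewer Sgk1-expressing cells and less Sgk1 RNA per cell cannot be told apart.

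**Figure D1:**
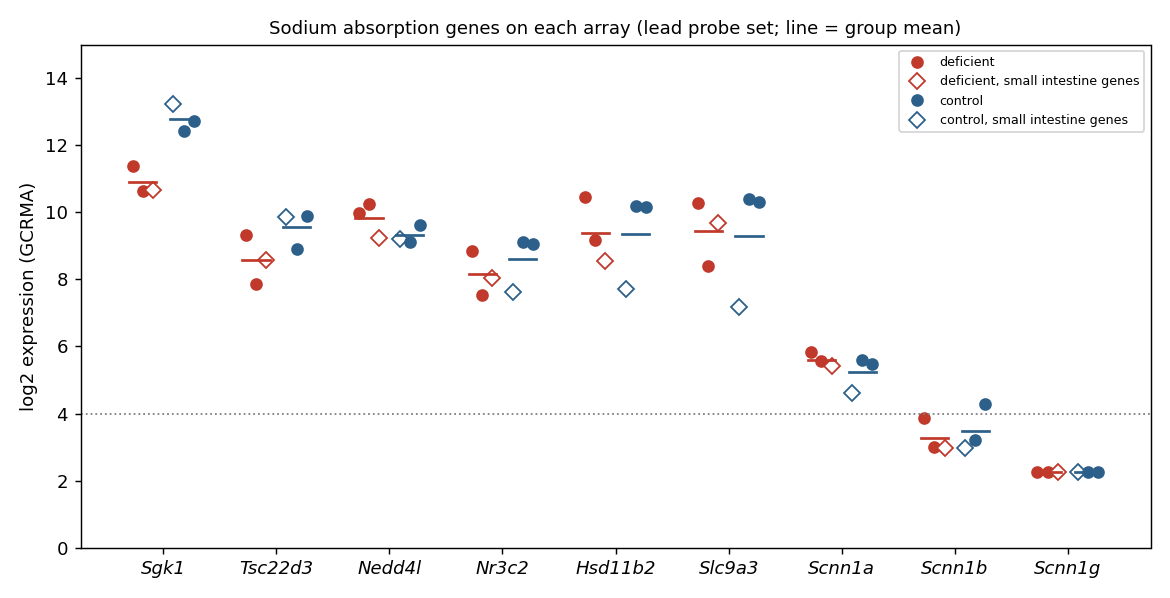
Log2 expression of the lead probe set of each of the 9 genes on each array, deficient left (red) and control right (blue). Open diamonds are the 2 enterocyte-profile arrays (small intestine genes), lines are group means, and the dotted line marks log2 4, the level of the filter on dim probe sets. Sgk1 lies between 10.63 and 11.38 in deficient and between 12.43 and 13.23 in control colon, while the groups of the other 8 genes overlap.

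Markers of immune cells moved in the direction opposite to Sgk1. All 10 macrophage and monocyte markers were higher in deficient colon, as were 5986 of all 10491 genes tested. Their median difference was 1.20, against 0.06 over all genes tested. The mean level of these markers per array was 8.12 to 9.60 in deficient and 7.25 to 7.96 in control samples. One of them, Itgam, passed the filter on dim probe sets through the deficient arrays only. Neutrophil markers averaged 4.04 to 5.71 in deficient and 3.17 to 3.93 in control samples. Cxcr2, Mpo, Elane, Ngp and Camp stayed near the array floor on every array. Csf3r, which also did not pass the filter, read 3.84, 5.04 and 3.48 in deficient and 3.04, 3.39 and 3.53 in control colon. Of the neutrophil markers that passed the filter, S100a8, S100a9 and Mmp9 overlapped between genotypes. The remaining one, Il1r2, passed through the deficient arrays only. The 10 general epithelial markers averaged 12.48 to 12.65 in deficient and 12.54 to 12.93 in control samples, with 7 of 10 lower and a median difference of -0.03. Smooth muscle markers averaged 10.43 to 11.04 in deficient and 10.14 to 11.36 in control samples, and fibroblast and endothelial markers also overlapped. The part of cell composition in the Sgk1 difference was not tested.

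**Figure D2:**
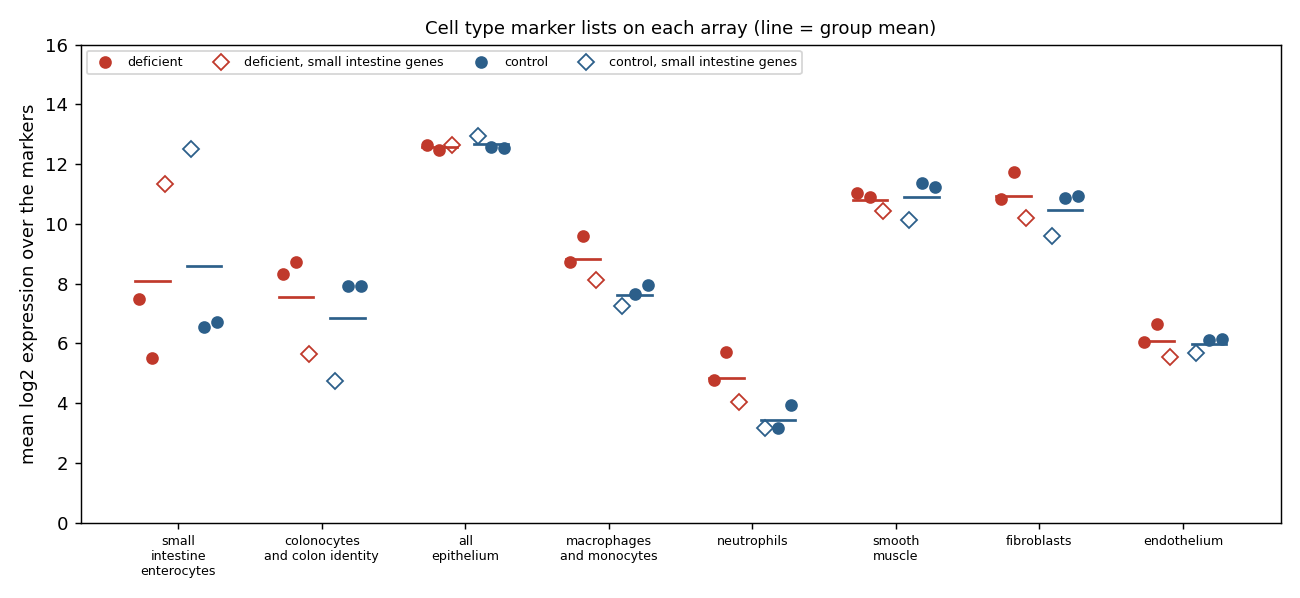
Mean log2 expression over the measured markers of each cell type on each array, deficient left (red) and control right (blue), with lines at the group means. Open diamonds are the enterocyte-profile arrays, which stand apart in the first pair of lists. The macrophage list is separate between genotypes. The neutrophil list is so by a narrow gap, at 4.04 on deficient replicate 3 and 3.93 on control replicate 3. Epithelial markers lie between 12.48 and 12.93 on all arrays.

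No gene of the whole set passed the limma test between genotypes. Of 10491 genes tested, 0 had a Benjamini-Hochberg adjusted p under 0.05 (0%), and 783 had an unadjusted p under 0.05 (7.46%). Of the 9 sodium absorption genes 7 passed the filter on dim probe sets, which asked for a level above log2 4 on 3 or more arrays, and the exceptions were Scnn1b and Scnn1g. Among the 6 tested genes other than Sgk1, 0 had an adjusted p under 0.05 and 0 an unadjusted p under 0.05. Groups did not overlap for 1 of the 7, Sgk1 itself, on the lower side, where 4.15% of all genes were lower on every deficient array, and for 0 of the 7 on the higher side, against 9.36% of all genes. Since Sgk1 was chosen for that difference, its place in this count is no result.

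Tsc22d3, also called Gilz, encodes a leucine zipper protein induced by glucocorticoids that restrains inflammatory transcription. Its lead probe set (1420772_a_at) read 9.32, 7.86 and 8.58 in deficient colon and 9.87, 8.89 and 9.88 in control colon. The overlap came from deficient replicate 1, which lay above control replicate 2. The difference was -0.96, standard error 0.46 (limma adjusted p 0.698). It kept its sign among the 4 colon-profile arrays, at -0.80, and between the other 2, at -1.29. The next brightest probe set of Tsc22d3 (1425281_a_at), with a mean of 8.40 over the arrays against 9.07 for the lead, read 8.38, 7.36 and 7.67 in deficient and 9.41, 8.46 and 9.11 in control colon. There the groups did not overlap, by a gap of less than 0.1 between deficient replicate 1 and control replicate 2, and the difference was -1.19. The dimmer 1425557_x_at, of the type that can cross-hybridise, differed by -0.46, and 1444365_at was at the floor on all arrays.

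Nedd4l is the ligase that marks ENaC for removal and is held in check by Sgk1. Its lead probe set (1423269_a_at) read 9.97, 10.25 and 9.23 in deficient colon and 9.22, 9.12 and 9.63 in control colon. The 2 highest values were deficient and came from colon-profile arrays, while deficient replicate 3 lay among the controls. The difference was 0.50, standard error 0.31 (limma adjusted p 0.740). It was 0.74 among the 4 colon-profile arrays and 0.01 between the other 2. The other Nedd4l probe sets differed in sign or size. Probe set 1457374_at differed by -0.16, 1441305_at by 0.50 with individual arrays from 3.96 to 6.76, and 1437400_at by 0.09 near log2 4, and the last pair lay at the floor.

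**Figure D3:**
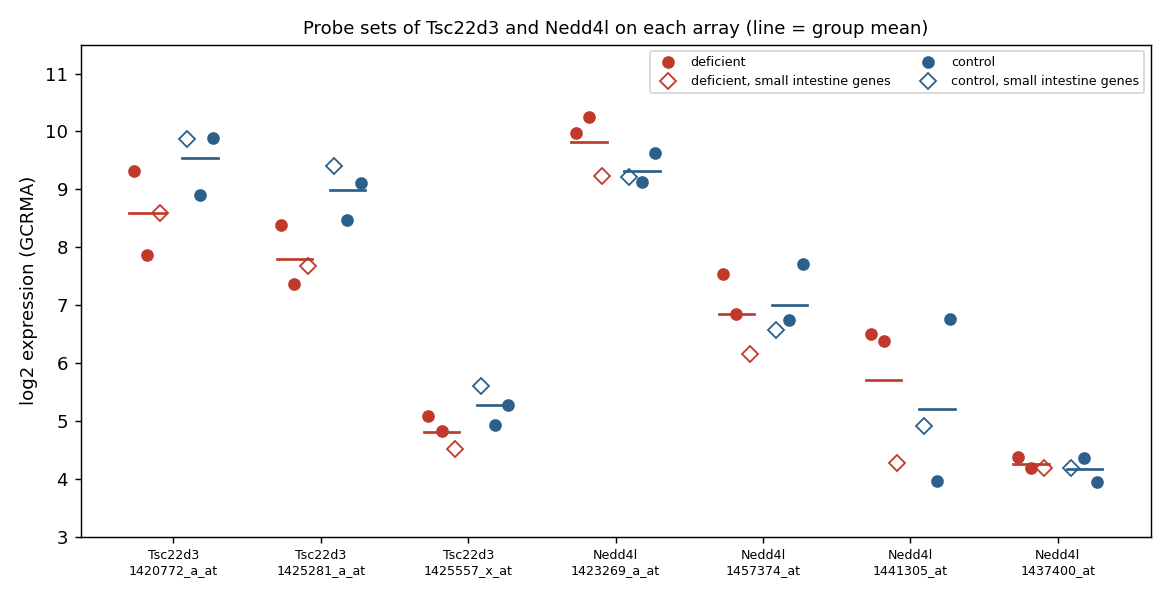
Log2 expression of every Tsc22d3 and Nedd4l probe set that passed the filter, on each array, deficient left (red) and control right (blue), with lines at the group means and open diamonds for the enterocyte-profile arrays. All 3 Tsc22d3 probe sets have a lower mean in deficient colon (-0.96, -1.19 and -0.46), while the Nedd4l probe sets differ in sign.

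The receptor and the enzyme that guard aldosterone selectivity varied between arrays within both genotypes. Nr3c2, the mineralocorticoid receptor (1435991_at), read 8.86, 7.55 and 8.04 in deficient colon and 7.62, 9.12 and 9.06 in control colon. It was low on control replicate 1, an enterocyte-profile array, and on deficient replicate 2, a colon-profile array. The difference was -0.45, standard error 0.53 (limma adjusted p 0.852). Hsd11b2 (1416761_at) read 10.45, 9.18 and 8.56 in deficient colon and 7.70, 10.19 and 10.16 in control colon. Both groups spanned over 1 log2 unit and the means were close, a difference of 0.05, standard error 0.83 (limma adjusted p 0.995). Both enterocyte-profile arrays were the lowest of their group for Hsd11b2, and without control replicate 1 its difference turned to -0.77.

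Slc9a3 encodes NHE3, the apical exchanger that takes up sodium for protons and accounts for electroneutral absorption in ileum and proximal colon. Its lead probe set (1441236_at) read 10.29, 8.40 and 9.67 in deficient colon and 7.17, 10.39 and 10.32 in control colon. The mean difference of 0.16 (standard error 0.9997, limma adjusted p 0.978) joined opposite values in the 2 kinds of array. It was -1.01 among the 4 colon-profile arrays, set by deficient replicate 2, and 2.50 between the 2 enterocyte-profile arrays, set by control replicate 1, without which the overall difference turned to -0.90. Its other probe set (1432771_at) was at the floor.

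Of the ENaC subunits only Scnn1a, the alpha subunit, passed the filter. Scnn1a (1425088_at) read 5.83, 5.57 and 5.41 in deficient colon and 4.62, 5.60 and 5.47 in control colon. Control replicate 1 was the lowest and the other 5 arrays lay between 5.41 and 5.83. The difference was 0.37, standard error 0.30 (limma adjusted p 0.789). Scnn1b, the beta subunit (1418475_at), read 3.87, 2.99 and 2.97 in deficient colon and 2.97, 3.22 and 4.28 in control colon. It was above log2 4 on 1 array, control replicate 3. Scnn1g, the gamma subunit (1419079_at), was at the floor value of 2.25 on every array. A level at the floor shows only that these probes gave no signal above background, and no difference is drawn from either subunit.

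**Figure D4:**
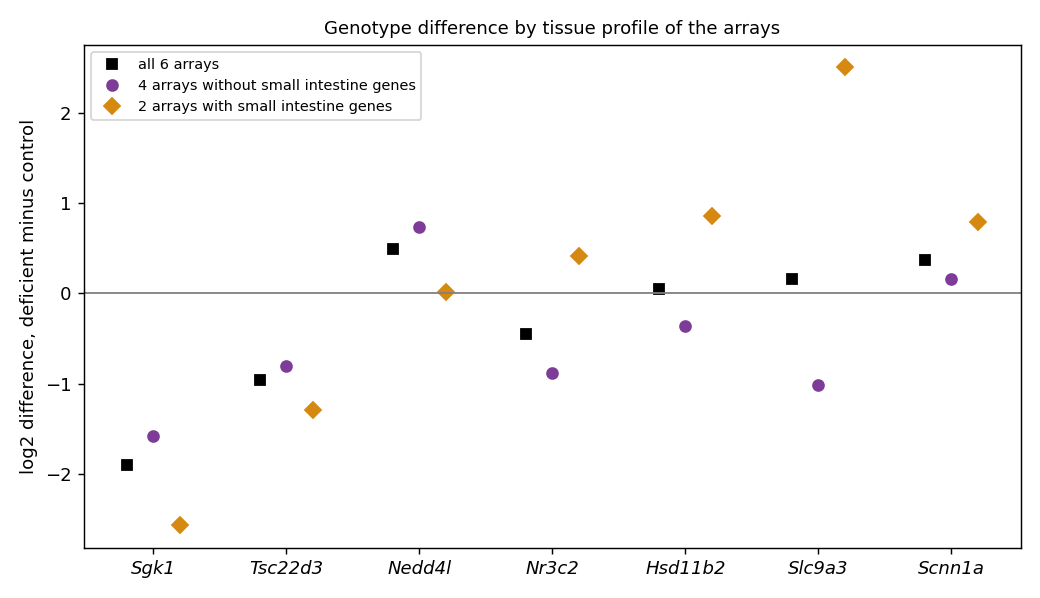
Difference in log2 expression, deficient minus control, of the 7 genes that passed the filter, over all 6 arrays (squares), the 4 colon-profile arrays (circles) and the 2 enterocyte-profile arrays (diamonds). Sgk1 and Tsc22d3 lie under 0 in all 3 settings, whereas Slc9a3, Nr3c2 and Hsd11b2 lie on opposite sides of 0 in the 2 kinds of array.

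Taking the 4 colon-profile arrays alone, groups did not overlap for Sgk1, Nr3c2 and Slc9a3 on the lower side and for Nedd4l on the higher side, 3 and 1 of the 7. With 2 arrays a group, 18.4% of all genes were lower and 30.5% higher without overlap. Nr3c2 differed by -0.88 there and Hsd11b2 by -0.35. Deficient replicate 2 gave the lowest value of the 4 for Sgk1, Tsc22d3, Nr3c2, Hsd11b2 and Slc9a3, and it also had the highest macrophage and neutrophil marker means of all arrays, at 9.60 and 5.71. Of all arrays it alone had Hoxb13 and Atp12a above log2 4, at 7.30 and 7.51, though neither gene passed the filter. The part of immune cell content or of colon segment in these differences was not tested.

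Genes of sodium absorption outside the 9 were described from a list of 21, of which 19 had a probe set and 17 passed the filter. Of these 10 were lower and 7 higher in deficient colon, with a median difference of -0.15 against 0.06 over all genes tested, and 0 passed in either direction by limma's adjusted p. Slc9a2, which encodes the exchanger NHE2, read 9.65, 8.55 and 8.59 in deficient and 9.26, 10.13 and 10.02 in control colon. It differed by -0.87 (limma adjusted p 0.686), and this was -0.98 and -0.67 in the 2 kinds of array. The exchanger scaffold Slc9a3r1 followed the tissue profile, at 13.01 and 13.41 on the 2 enterocyte-profile arrays and 11.04 to 11.17 elsewhere.

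Atp1b1, a subunit of the sodium pump of the basolateral membrane, lay between 13.40 and 13.89 on all arrays, with a difference of -0.08. Fxyd3, a pump regulator, differed by -0.28, and Fxyd4, the corticosteroid-induced pump regulator of the colon, was near the floor at 2.33 to 2.43. Atp12a, the colonic proton-potassium pump, was high on deficient replicate 2 alone, at 3.32, 7.51 and 2.56 in deficient and 2.42, 2.56 and 2.58 in control colon. The chloride-bicarbonate exchanger Slc26a3 differed by 0.43 and the basolateral potassium channel Kcnn4 by -0.42.

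ENaC is activated by proteases that cut its subunits. Prss8, encoding prostasin, differed by -0.15 and the membrane protease Tmprss4 by 0.38. Spint2, an inhibitor of such proteases, was the single gene of the list that was lower on every deficient array, at 13.84, 13.57 and 13.88 in deficient and 14.00, 14.10 and 13.97 in control colon. It differed by -0.26 (limma adjusted p 0.735). This is 1 of 17 genes, and 4.15% of all genes tested were lower on every deficient array.

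All 21 genes of the list of Sgk1 and Nedd4l regulators passed the filter, with 12 lower, 9 higher, a median difference of -0.06 and 0 past the adjusted threshold. Sgk2, a close relative of Sgk1, was the one member separate on the lower side, and none was separate on the higher side, where 4.15% and 9.36% of all genes tested were lower and higher on every deficient array. A count of 1 of 21 is near that share. Sgk2 (1418739_at) read 8.14, 8.09 and 7.71 in deficient colon and 8.63, 8.48 and 8.55 in control colon. The difference was -0.57, standard error 0.18 (limma adjusted p 0.659), and it was -0.40 and -0.91 in the 2 kinds of array. Sgk3, the third kinase of the family, differed by 0.16 and Nedd4, the relative of Nedd4l, by 0.13. Pdpk1, which phosphorylates the Sgk kinases, differed by -0.07.

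Ndrg1, a direct substrate of Sgk1, differed by -0.65 with control arrays from 9.43 to 11.56, and Ndrg2 by -0.40. The ENaC deubiquitinase Usp2 was highest on the 2 enterocyte-profile arrays, at 8.43 and 8.89 against 6.16 to 7.03, and differed by -0.57 between genotypes. The kinases Wnk1 and Wnk4, regulators of salt transport, differed by 0.29 and -0.41.

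**Figure D5:**
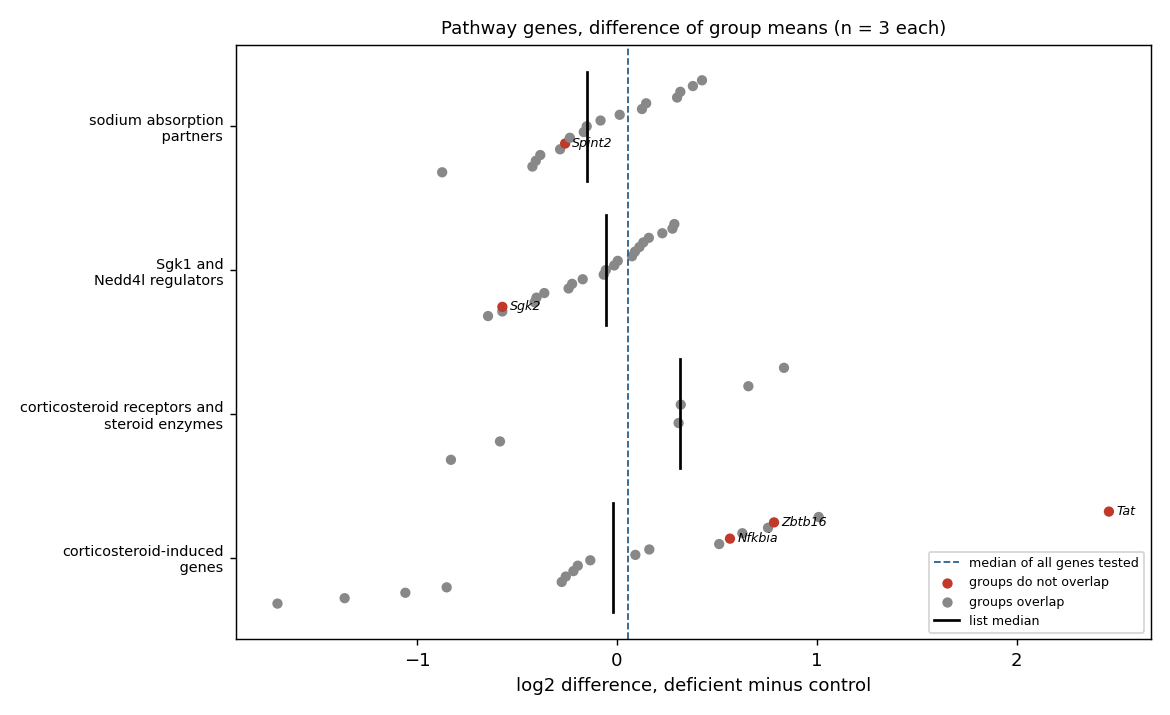
Difference in log2 expression, deficient minus control, of each tested gene of 4 pathway lists, with list medians as black lines and the median of all 10491 genes (0.06) dashed. Red points are genes whose groups do not overlap: Spint2 and Sgk2 on the lower side, and Zbtb16, Nfkbia and Tat on the higher side.

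Genes that respond to corticosteroids did not share one direction with Sgk1 and Tsc22d3. Of 19 listed, 18 passed the filter, 9 lower and 9 higher in deficient colon, with a median difference of -0.02 and 0 past the adjusted threshold. The median was 0.27 among the 4 colon-profile arrays and -0.16 between the other 2. Groups did not overlap for 0 genes on the lower side and 3 on the higher side, Zbtb16, Nfkbia and Tat, against 4.15% and 9.36% of all genes tested. Fkbp5, a chaperone that is among the most used glucocorticoid readouts, read 10.32, 9.74 and 9.71 in deficient and 9.43, 10.27 and 10.47 in control colon, a difference of -0.13 (limma adjusted p 0.942). The clock gene Per1 differed by -0.20 and the transcription factor Klf9 by -0.26.

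Zbtb16, a zinc finger factor, read 6.25, 6.18 and 6.89 in deficient and 4.997, 5.87 and 6.10 in control colon, a difference of 0.79 (limma adjusted p 0.686) on a probe set that can cross-hybridise (1419874_x_at). Dusp1, a phosphatase of MAP kinases, read 9.40, 10.12 and 8.22 in deficient and 8.23, 8.36 and 8.87 in control colon. Its difference of 0.76 was 1.14 among the 4 colon-profile arrays and -0.01 between the other 2.

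Corticosteroid receptors, receptor chaperones and steroid enzymes were described from 12 genes, of which 11 had a probe set and 6 passed the filter. Of these 4 were higher and 2 lower, with 0 past the adjusted threshold and a median of 0.31. The higher genes include receptor chaperones, and the steroid synthesis enzymes of the list did not pass the filter. The median therefore does not measure the supply of active steroid. Nr3c1, the glucocorticoid receptor, read 9.68, 8.91 and 10.39 in deficient and 10.34, 10.08 and 10.32 in control colon, a difference of -0.59 (limma adjusted p 0.745). Hsd11b1, which regenerates corticosterone and so opposes Hsd11b2, read 8.89, 8.37 and 7.00 in deficient and 7.25, 7.03 and 7.46 in control colon. It was high on the 2 deficient colon-profile arrays, where the difference was 1.38, against -0.25 between the other 2 and 0.84 overall (limma adjusted p 0.728). Cyp11b1, the last enzyme of corticosterone synthesis, was near the floor at 2.27 to 2.83.

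The 5 genes whose levels ran most like Sgk1 over the 6 arrays were Aqp1, Fbxw8, Igkv6-20, Sirt2 and Irf7, taken from all tested genes by Pearson correlation. Because Sgk1 separates the genotypes, any gene this close to it must do so too, and the correlations are given as a description. Aqp1, a water channel of vessels and other cells, read 8.83, 8.07 and 8.37 in deficient and 10.18, 9.57 and 9.82 in control colon, and ordered all 6 arrays as Sgk1 did (r = 0.994). Irf7, an interferon regulatory factor, read 7.37, 7.01 and 7.13 in deficient and 8.03, 7.82 and 7.65 in control colon. The deacetylase gene Sirt2 and Fbxw8 varied by standard deviations of only 0.20 and 0.05 over the arrays, and Igkv6-20, an immunoglobulin segment, was under log2 4 in all deficient samples.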

How the data were processed

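Whole-colon total RNA of 3 deficient and 3 control mice was measured on Affymetrix arrays, each mouse on its own array. The authors deposited log2 expression values, made with GCRMA per the submitters' processing notes; no version or settings are given in these sources, and the log2 scale was read from the values. Of 45101 probe sets, 34958 named 1 gene in the platform annotation, updated by Entrez identifier through RefSeq. Those above log2 4 on at least 3 arrays were kept (17031), and the brightest per gene over all arrays was tested (10491 genes), by two-sided limma (version 3.58.1, R 4.3.3; lmFit, then eBayes) as deficient minus control without covariates, with p-values adjusted by Benjamini-Hochberg across every gene tested. The procedure was also run on simulated data with independent noise, each gene's spread capped at the median spread and no tissue profile. Those data were less noisy than the arrays, so that run does not show how the procedure performs on them. The number of arrays limits the precision.

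The genes, lists, tests and alternatives were chosen with earlier results of these data known. Pathway genes were named by role whatever their values; likeness to Sgk1 was ranked by Pearson correlation, passing over predicted transcripts. Likeness to Scnn1b was not ranked, as it did not pass the filter. Genes outside that rule (Tat, Nfkbia, Pdk4, Sult1a1, Nr5a2) were named after their values were seen. Single genes of the marker lists, such as Hoxa10, Hoxd10, Hoxb13, Itgam, Il1r2, S100a8, S100a9 and Mmp9, were outside that rule too. The 2 enterocyte-profile arrays (small intestine genes) were set apart by Apoa1. Alternatives were other filters, quantile normalization, centring on array medians, averaging a gene's probe sets, every probe set alone, a floor at log2 4, trend and robust eBayes, a replicate block, a tissue profile block, leaving out both enterocyte-profile arrays, and leaving out each array.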

Additional observations from a re-analysis of the deposited data

Results flagged for a closer look

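For 11 of the 44 tested genes named in the text (25%) the genotype difference pointed one way on the 4 colon-profile arrays, with groups that did not overlap, and the other way between the 2 enterocyte-profile arrays. Over all 10491 genes tested the share was 17.6%, so such a pattern was common on these arrays. The 44 include genes named because of their values, Pdk4 among them, and Apoa1, by which the 2 kinds of array were set apart. The 25% is therefore no result against the 17.6%. The difference between the 2 kinds of array was not tested, since 1 of the 2 kinds has 1 array per genotype. Among the sodium absorption genes these were Slc9a3, at -1.01 among the 4 arrays and 2.50 between the 2, and Nr3c2, at -0.88 and 0.42. Of the steroid genes, Nr3c1 differed by -0.90 and 0.05, Hsd11b1 by 1.38 and -0.25, Per1 by 0.29 and -1.18, and Dusp1 by 1.14 and -0.01. Of the transport genes, Fxyd3 differed by -0.63 and 0.40, Slc26a3 by 1.001 and -0.73, and Wnk4 by -0.65 and 0.07. Outside these groups, Pdk4 differed by -2.10 and 0.11, and Apoa1, the apolipoprotein gene by which the 2 kinds of array were set apart, by 2.21 and -0.22. Sgk1, Tsc22d3 and Nedd4l were not flagged. Sgk1 could not be, since its groups lay apart on all 6 arrays, in a difference it was chosen for. Tsc22d3 could not be either, since its groups overlapped among the 4 colon-profile arrays. Nedd4l had the same sign in both kinds but not the same size, at 0.74 and 0.01.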

How the results depend on the processing

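Over the 17 alternatives the Sgk1 difference ran from -2.15 without deficient replicate 1 to -1.57 without the 2 enterocyte-profile arrays. These moves were smaller than the spread between replicates. Sgk1 was chosen for its difference and its groups do not overlap, so leaving out arrays could not reverse the sign. The range is a description and no support for the difference. Other filters, averaging or separating probe sets, the floor, the eBayes options and the blocks left it at -1.90. They could not change it for a bright gene with 1 probe set in balanced groups, so they do not bear on it. The count of genes past the adjusted threshold was 0 under every alternative except testing every probe set on its own, where 1 passed, and the count among the sodium absorption genes other than Sgk1 was 0 throughout. With the replicate block it was 0 too, with 437 genes at an unadjusted p under 0.05 in place of 783, and without the 2 enterocyte-profile arrays there were 1461. The same-number correlations of deviations from the group means were -0.54, 0.36 and -0.61. Numbers 1 and 3 each join an enterocyte-profile array to a colon-profile array, and number 2 joins 2 colon-profile arrays. These values therefore cannot decide whether replicate numbers pair the samples. Of 32 genes 21 kept their sign throughout. Hsd11b2 turned to -0.0087 with quantile normalization and to -0.35 without the 2 enterocyte-profile arrays, where Slc9a3 turned to -1.01 and Per1 to 0.29. In fits without 1 array, Hsd11b2 ran from -0.77 (without control replicate 1) to 0.47, Slc9a3 from -0.90 (without control replicate 1) to 0.71, Slc9a3r1 from -0.81 to 0.60, Usp2 from -1.26 to 0.061, Wnk4 from -1.15 to 0.085, Prss8 from -0.54 to 0.26, Per1 from -0.40 to 0.20, Fkbp5 from -0.45 to 0.074, Nedd4 from -0.16 to 0.40, Atp1b1 from -0.18 to 0.045 and Pdpk1 from -0.14 to 0.011. The cause was not tested. Scnn1b and Scnn1g lie near the floor, where differences are not measured.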

Other observations

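Further corticosteroid-responsive genes of the list, named here because of their values, ran in different directions. Tat, the tyrosine aminotransferase known as a glucocorticoid-induced gene of liver, read 6.52, 7.18 and 9.17 in deficient and 4.26, 5.84 and 5.38 in control colon, a difference of 2.46 (limma adjusted p 0.659). Nfkbia, the inhibitor of NF-kappaB, was higher on every deficient array. Pdk4, a kinase that limits pyruvate oxidation and is also a PPAR target, read 7.04, 6.11 and 7.22 in deficient and 7.11, 8.36 and 8.99 in control colon. Its difference was -2.10 among the 4 colon-profile arrays and 0.11 between the other 2. Sult1a1, a sulfotransferase, read 11.89, 7.43 and 7.23 in deficient and 7.61, 11.68 and 12.35 in control colon, so that deficient replicate 2 stood with the 2 enterocyte-profile arrays. Nr5a2, a nuclear receptor of intestinal steroid synthesis, was lowest on deficient replicate 2, at 8.19, 6.52 and 7.74 in deficient and 8.09, 8.28 and 8.57 in control colon.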
